A study of Arabidopsis thaliana with 24 samples.

Results

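The 5 PDX genes of Arabidopsis thaliana are PDX1.1 (AT2G38230), PDX1.2 (AT3G16050), PDX1.3 (AT5G01410), PDX1L4 (AT2G38210) and PDX2 (AT5G60540), and all 5 were among the 16183 genes of the deposited count table. They were picked on these data, for a difference between root and shoot in their change under SHAM, so their SHAM changes, the difference between organs, the water levels and the steps between SHAM times are given as descriptions and no p is given for them. The plants were wild-type Columbia-0 seedlings aged 7 days, treated either with water (1 h) or with SHAM (1, 2 or 3 h), and roots were then cut from shoots. SHAM is salicylhydroxamic acid, an inhibitor of the plant alternative oxidase that also acts on other enzymes. Each of the 8 groups (2 organs by 4 treatments) had 3 libraries, and each replicate pooled many seedlings. The treatment label of the SHAM groups gives 1 mM, whereas the protocol text gives both 0.1 mM and 1 mM and speaks of SHAM in 30% polyethylene glycol (PEG), so the dose and the presence of PEG are not settled by the labels. The only control was 1 h in water, so at 2 and 3 h the length of the exposure and SHAM cannot be told apart.

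Plants make vitamin B6 as pyridoxal 5′-phosphate, the cofactor of aminotransferases, decarboxylases and many other enzymes of amino acid metabolism. PDX1 proteins build it from ribose 5-phosphate, glyceraldehyde 3-phosphate and ammonia, and PDX2 is the glutaminase that releases the ammonia from glutamine. In Arabidopsis PDX1.1 and PDX1.3 are the catalytic synthases, while PDX1.2 is a non-catalytic relative that joins their complexes and is known as a heat-induced gene.

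The gene models describe the members, and the codons of the active-site lysines are printed because they separate PDX1.2 from its relatives. Enzyme activity was not measured here. In the RefSeq annotation of TAIR10.1, PDX1.1 lies on the plus strand at chr2:16011233-16012515 in 1 exon and encodes 309 residues. PDX1.3 lies on the minus strand at chr5:171889-173663 and also encodes 309 residues, PDX1.2 on the minus strand at chr3:5443950-5445329 with 314 residues, and PDX2 on the minus strand at chr5:24336623-24338802 with 6 exons and 255 residues. PDX1.1 and PDX1.3 were identical at 276 of 308 aligned residues (89.61%), whereas PDX1.2 was 61.64% identical to PDX1.1 and 63.61% to PDX1.3. The coding sequence around the lysine at residue 97 of PDX1.3 follows, 5′ to 3′, with the codon of that position in capitals.
PDX1.1: ccggtgatggcgAAAgctagaattggt
PDX1.3: ccggtgatggctAAGgctaggattggt
PDX1.2: cctgtgatggcaCGAgctcgcgttggt
The same stretch around the lysine at residue 165 of PDX1.3 follows.
PDX1.1: atgataagaaccAAAggtgaggctgga
PDX1.3: atgattaggaccAAAggtgaagctgga
PDX1.2: atgattaggatcCAAggagatttaacc
At both positions PDX1.1 and PDX1.3 have a lysine codon. PDX1.2 has an arginine codon at the first and a glutamine codon at the second.

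PDX1L4 is a short copy of PDX1.1. It lies at chr2:16006749-16007722, 3510 bases before PDX1.1 on the same strand, and its 79 residues were identical to PDX1.1 at 77 positions. An exact repeat of 675 bases joins the genes, from chr2:16006750-16007424 at PDX1L4 and from chr2:16011027-16011701 at PDX1.1. The repeat holds the first 227 coding bases of each gene, after which PDX1L4 has 13 coding bases left and PDX1.1 has 703. The sequences at its end are shown because they mark where the reading frames part, with the last bases of the repeat in capitals.
PDX1L4: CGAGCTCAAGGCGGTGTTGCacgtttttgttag
PDX1.1: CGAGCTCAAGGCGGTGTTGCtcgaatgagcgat
PDX1L4 thus ends before both lysine positions. No function of its protein is assumed here.

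**Figure D1:**
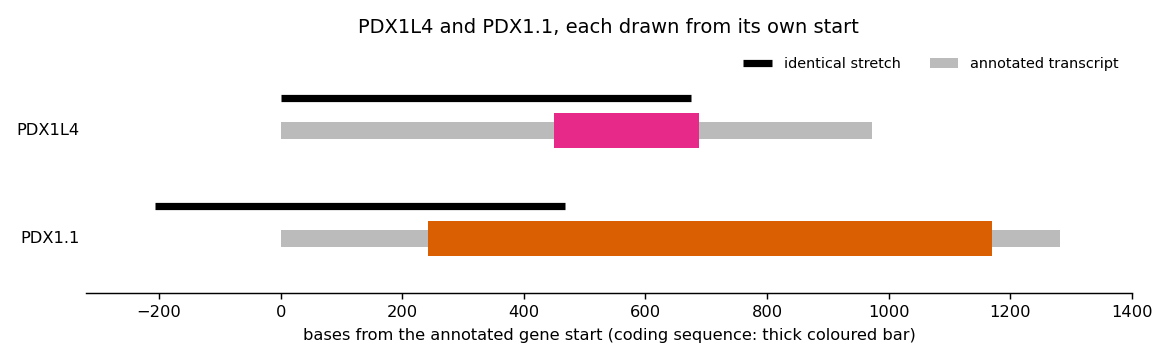
PDX1L4 and PDX1.1 on a scale of bases from each annotated gene start, with the transcript in grey, the coding sequence as a thick coloured bar and the identical stretch of 675 bases as a black line. The stretch lies within PDX1L4 from its start, and spans the 206 bases before PDX1.1 and the first part of its coding sequence.

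The libraries were made by MARS-seq, which counts the 3′ ends of transcripts, so a level is given as CPM, the count scaled to a fixed library total, not divided by transcript length. Fitted log2 changes use TMM scaling, so they need not equal the ratio of the CPM values. Transcripts of PDX1.1 and PDX1L4 share a run of 469 identical bases, but none of the 271 windows of 30 bases in the last 300 bases of either transcript was found in the other. Where the reads fell was not tested, so the split of reads between these 2 genes is uncertain to that extent. Library totals ran from 862731 to 3622300 counts. Of the organ markers, 12 of 12 shoot genes were higher in shoot than in root in water, and 10 of 10 root genes lower. Shoot markers took 9.87% to 14.01% of the counts in shoots and 0.0270% to 0.175% in roots, except for the root SHAM 1 h replicate 1, where they took 1.57%. In replicates 1, 2 and 3 their share was 0.139%, 0.175% and 0.0358% in root SHAM 2 h. It was 0.159%, 0.0304% and 0.0270% in root SHAM 3 h, and 0.0388% to 0.0688% in root water. Root markers took 0.444% to 0.571% of the counts in roots in water and 0.0904% to 0.169% in roots in SHAM; their part in the PDX values was not tested. In whole organs, fewer cells of a type and less RNA per cell cannot be told apart.

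PDX1.1 had the widest range of levels in CPM of the 5 PDX genes. In roots it stood at 46.0, 37.1 and 49.4 CPM in the 3 water libraries, at 154, 129 and 81.9 CPM after 1 h of SHAM, at 156, 133 and 70.5 CPM after 2 h, and at 146, 64.6 and 75.7 CPM after 3 h. Every root SHAM library lay above every root water library. In shoots it stood at 1607, 1333 and 1018 CPM in water, at 689, 819 and 617 CPM after 1 h, at 399.8, 380.1 and 386 CPM after 2 h, and at 727, 657 and 623 CPM after 3 h. Every shoot SHAM library lay below every shoot water library, and every shoot library above every root library. In order of level, root water was lowest, the 3 root SHAM groups overlapped one another, shoot SHAM 2 h stood apart, shoot SHAM 1 h and 3 h overlapped, and shoot water was highest.

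On the log2 scale, the fitted change of PDX1.1 against water in roots was 1.70 ± 0.38 (SE) at 1 h, 1.75 ± 0.38 at 2 h and 1.46 ± 0.38 at 3 h. In shoots it was -0.67 ± 0.23, -1.70 ± 0.23 and -0.99 ± 0.23. The organ difference, the shoot change minus the root change, was -2.45 ± 0.46, -3.52 ± 0.47 and -2.48 ± 0.46. Without the root library that carried the most shoot-marker counts, the root change of PDX1.1 at 1 h was 1.59. At 1 h and 2 h the root SHAM library with the lowest shoot-marker share also had the lowest PDX1.1 level. At 3 h the library with the highest share (0.159%) had the highest level (146 CPM). Whether this share affects the root levels was not tested. The changes and organ differences are the values that chose the gene.

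**Figure D2:**
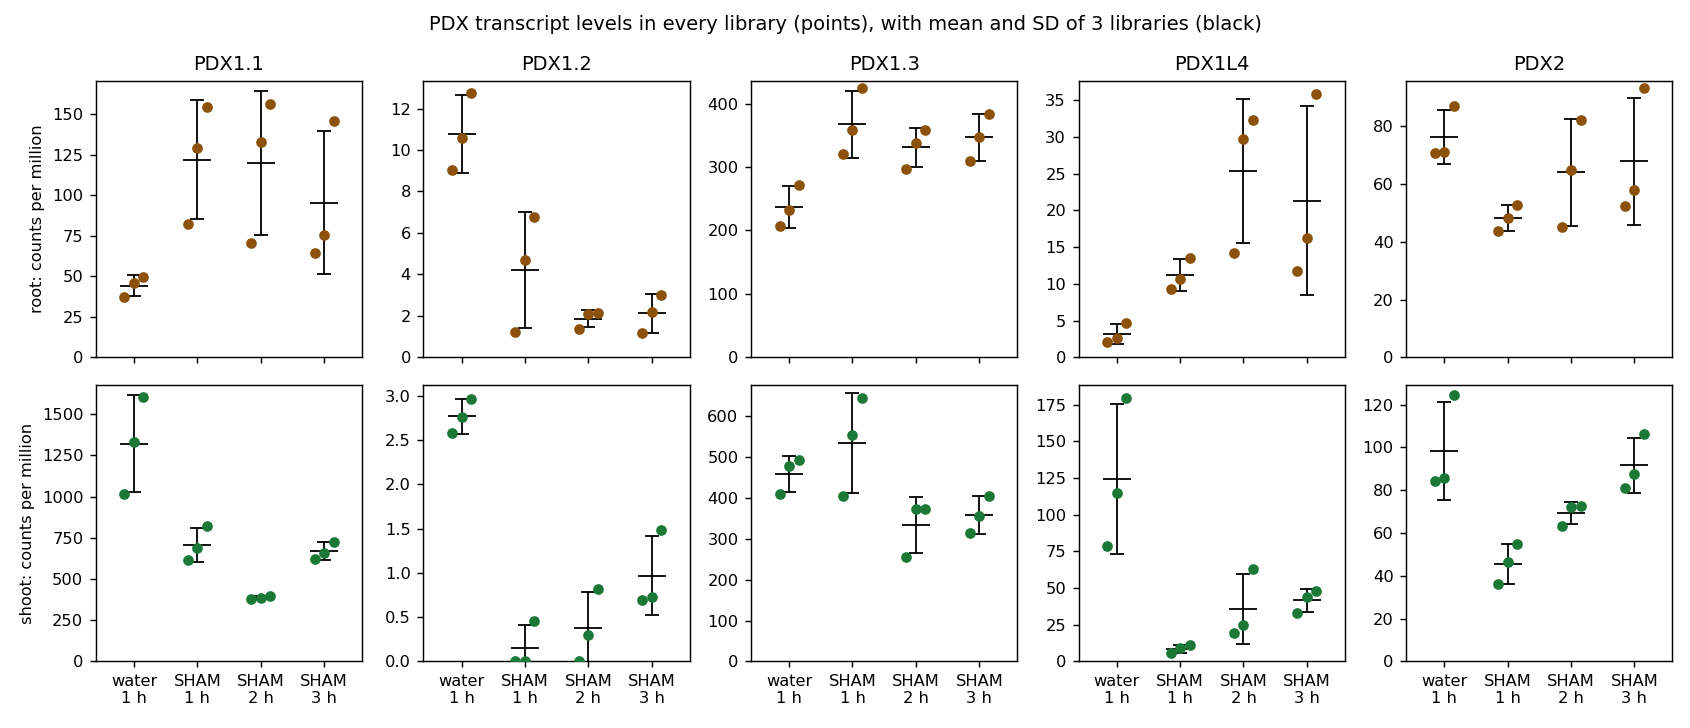
Levels of the 5 PDX genes in CPM (linear axes from 0, scaled for each panel) in roots (top) and shoots (bottom) after water or SHAM, with 1 point per library, the mean as a black bar and the SD of 3 libraries as the error bar. PDX1.1 and PDX1L4 were above the water libraries in root SHAM and below them in shoot SHAM, while PDX1.2 was below them in both organs.

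PDX1.3, the other catalytic synthase, was the most abundant PDX transcript of roots. It stood at 232, 206 and 271 CPM in root water, at 359, 424 and 319.9 CPM after 1 h of SHAM, at 358, 297 and 338 CPM after 2 h, and at 348, 309.6 and 384 CPM after 3 h. As for PDX1.1, no root SHAM library overlapped the water libraries. In shoots it stood at 492, 409 and 478 CPM in water, at 404, 554 and 646 CPM after 1 h, at 373, 374 and 255 CPM after 2 h, and at 406, 357 and 314 CPM after 3 h. The shoot libraries of 1 h overlapped those of water, and the libraries of 2 h and 3 h all lay below them. In unscaled CPM root water had the lowest mean, but its highest library (271 CPM) lay above the lowest of shoot SHAM 2 h (255 CPM). The root SHAM groups overlapped shoot SHAM 2 h and 3 h. Shoot SHAM 1 h and shoot water had the highest means and overlapped each other. Their lowest libraries (404 and 409 CPM) lay below the highest of root SHAM 1 h (424 CPM).

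The log2 change of PDX1.3 in roots was 0.88 ± 0.21, 0.81 ± 0.21 and 0.91 ± 0.21 at 1, 2 and 3 h, and in shoots 0.45 ± 0.19, -0.40 ± 0.19 and -0.35 ± 0.19. Its organ difference was -0.53 ± 0.32 at 1 h, -1.28 ± 0.32 at 2 h and -1.30 ± 0.32 at 3 h. With scaling by library size alone, which moved the median gene of these root comparisons by -0.24, -0.33 and -0.35, the root changes of PDX1.3 were 0.63, 0.48 and 0.55. The direction in roots was the same under both scalings.

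PDX1L4 had the largest fitted organ difference of the 5 genes. In root water it had 4, 4 and 5 counts, or 2.11, 4.64 and 2.65 CPM. It stood at 9.34, 13.6 and 10.7 CPM after 1 h of SHAM in roots, at 32.3, 29.7 and 14.2 CPM after 2 h, and at 35.9, 16.3 and 11.8 CPM after 3 h. In shoots it stood at 179, 115 and 79.0 CPM in water, at 9.03, 5.75 and 10.9 CPM after 1 h, at 24.8, 19.1 and 63.2 CPM after 2 h, and at 33.1, 44.1 and 48.2 CPM after 3 h. All root SHAM libraries were above root water and all shoot SHAM libraries below shoot water, and after 1 h of SHAM the libraries of both organs overlapped. At 2 h and at 3 h the libraries of both organs also overlapped in unscaled CPM, so on that scale shoot water alone stood above the rest. Whether these overlaps hold under TMM scaling was not tested. As for PDX1.1, the root SHAM 2 h library with the lowest shoot-marker share had the lowest level. The root SHAM 3 h library with the highest share had the highest level, but at 1 h the library with the highest share had the lowest. A part of this share in the PDX1L4 levels was not tested.

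The log2 change of PDX1L4 in roots was 2.18 ± 0.56, 3.41 ± 0.56 and 3.18 ± 0.56, and in shoots -3.64 ± 0.53, -1.72 ± 0.46 and -1.59 ± 0.45. The organ difference was -5.91 ± 0.78, -5.19 ± 0.74 and -4.78 ± 0.74. PDX1.1 had 11.2 ± 2.01 (SD, n = 3) counts for each PDX1L4 count in shoot water, 91.7 ± 45.0 in shoot SHAM 1 h, where single libraries ran from 56.5 to 142, and 14.02 ± 7.11 and 16.6 ± 4.74 in shoot SHAM 2 h and 3 h. The ratio of shoot SHAM 1 h stood apart from the other shoot groups, and the 2 h libraries overlapped those of water. In roots the ratio was 16.1 ± 7.20 in water, on the 4, 4 and 5 counts of PDX1L4, and 11.2 ± 4.65, 4.76 ± 0.25 and 4.82 ± 1.40 in SHAM at 1, 2 and 3 h. The root libraries of 1 h overlapped those of water, and the libraries of 2 h and 3 h lay below them.

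PDX1.2, the non-catalytic relative, had the fewest counts of the 5 genes over all libraries, and was higher in roots than in shoots in water. It had 20, 11 and 17 counts in the root water libraries (10.6, 12.8 and 9.03 CPM), and 11, 4 and 14 counts after 1 h of SHAM (4.67, 1.23 and 6.79 CPM). After 2 h it had 3 counts in each library, and after 3 h it had 3, 5 and 4. Every root SHAM library was below every water library in CPM. Its log2 change in roots was -1.14 ± 0.53, -2.18 ± 0.62 and -2.05 ± 0.60, opposite in sign to those of PDX1.1, PDX1.3 and PDX1L4.

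In shoots PDX1.2 had 4, 4 and 10 counts in water, 0, 0 and 1 after 1 h, 1, 2 and 0 after 2 h, and 2 in each library after 3 h. In CPM these were 2.97, 2.58 and 2.76 in water, 0, 0 and 0.455 after 1 h, 0.303, 0.815 and 0 after 2 h, and 0.728, 0.699 and 1.48 after 3 h. Every shoot SHAM library was below every shoot water library, at counts of 2 or fewer. PDX1.2 did not pass the filter on low counts in the shoot fit. Its organ difference in the fit of all libraries was -2.29 ± 1.15, -0.46 ± 0.92 and 0.40 ± 0.97, each within 2 SE of 0, and the 1 h value was -4.89 without the shoot SHAM 1 h replicate 3, the only one of its group with a count.

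PDX2, the glutaminase, was lower in every SHAM 1 h library than in water in both organs. In roots it stood at 87.2, 70.7 and 71.1 CPM in water, at 43.7, 48.4 and 52.8 CPM after 1 h of SHAM, at 45.0, 82.1 and 65.0 CPM after 2 h, and at 57.9, 52.5 and 93.2 CPM after 3 h. In shoots it stood at 125, 85.8 and 84.5 CPM in water, at 46.3, 36.1 and 54.6 CPM after 1 h, at 72.6, 63.2 and 72.0 CPM after 2 h, and at 81.2, 87.8 and 106 CPM after 3 h. The root libraries of 2 h and 3 h and the shoot libraries of 3 h overlapped those of water. In unscaled CPM the 2 groups at 1 h of SHAM had the lowest means and overlapped each other.

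The log2 change of PDX2 in roots was -0.42 ± 0.28, 0.07 ± 0.28 and 0.19 ± 0.28, and in shoots -0.88 ± 0.25, -0.43 ± 0.24 and -0.09 ± 0.24. With scaling by library size alone the root values of 2 h and 3 h were -0.26 and -0.16, so no direction is given for them. Its organ difference was -0.56 ± 0.36, -0.56 ± 0.35 and -0.33 ± 0.35, and the last one turned to 0.063 with that scaling and to 0.049 without the root SHAM 3 h replicate 3. At 3 h the value of PDX2 was smaller than its SE.

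**Figure D3:**
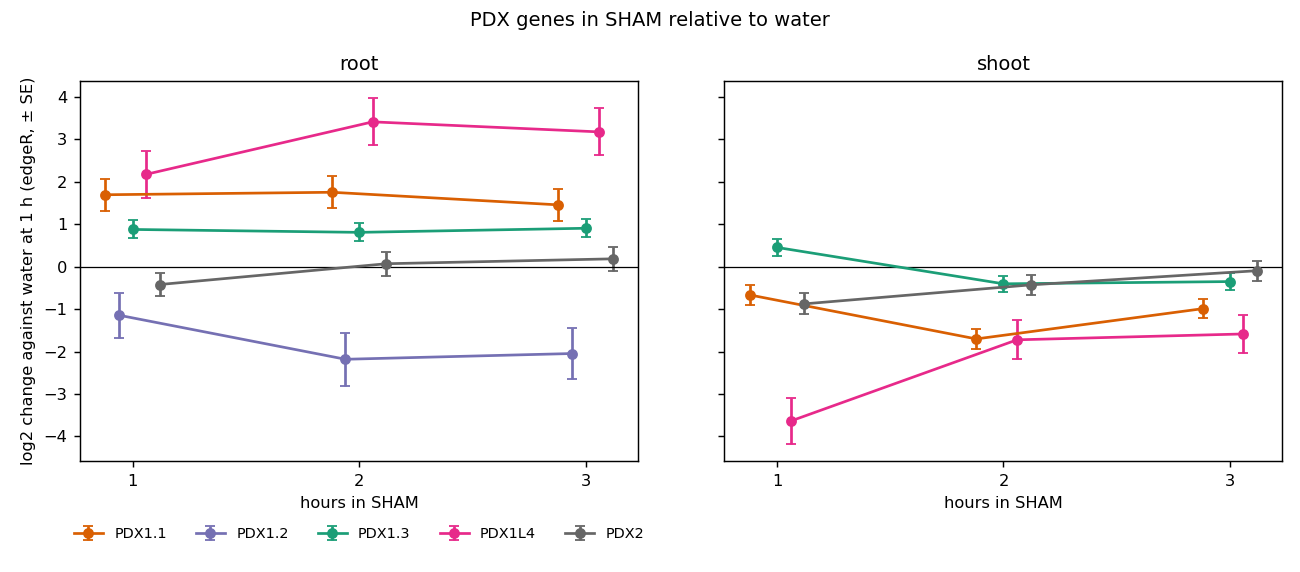
Fitted log2 change (± SE) of each PDX gene in SHAM against 1 h in water, by hours in SHAM, in roots (left) and shoots (right), from 12 libraries per organ. PDX1.1, PDX1.3 and PDX1L4 lie above 0 in roots, PDX1.1 and PDX1L4 lie below 0 in shoots, and PDX1.2 has no shoot points because it did not pass the filter on low counts.

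For comparison, an adjusted p under 0.05 (edgeR, Benjamini-Hochberg over all genes tested) was reached upward in roots by 7.01%, 8.6% and 10% of 10642 genes at 1, 2 and 3 h, and downward by 5.22%, 5.4% and 6.45%. In shoots the upward shares were 9.35%, 8.38% and 6.3% of 8570 genes and the downward shares 7.49%, 7.46% and 2.68%. Nothing is read from these shares about the PDX genes, which were picked on this contrast and of which 5 of 5 passed the filter in roots and 4 of 5 in shoots. Scaling by library size alone changed the root counts from 746 higher and 556 lower to 450 and 957 at 1 h, from 915 and 575 to 577 and 1275 at 2 h, and from 1064 and 686 to 661 and 1540 at 3 h. In shoots at 1 h it changed 801 and 642 to 542 and 991. The organ difference was called higher for 1.97%, 0.82% and 0.436% of 11704 genes and lower for 3.96%, 2.52% and 1.29% at 1, 2 and 3 h.

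In water, 4 of the 5 PDX genes were higher in shoots. The log2 value of shoot over root was 5.96 ± 0.39 for PDX1.1, 6.45 ± 0.60 for PDX1L4, 2.02 ± 0.24 for PDX1.3, 1.43 ± 0.25 for PDX2 and -0.87 ± 0.55 for PDX1.2. The scaling matters here, since library size alone moved the median gene by -1.06 and the median-ratio size factors by -0.19. With library size alone the values were 4.89 for PDX1.1, 5.40 for PDX1L4, 0.96 for PDX1.3, 0.36 for PDX2 and -1.92 for PDX1.2, with the same signs. In unscaled CPM the libraries of both organs did not overlap for PDX1.1, PDX1L4 and PDX1.3, or, with the root higher, for PDX1.2, and did overlap for PDX2.

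The summed level of the 5 genes was 371 ± 36.5 CPM (SD, n = 3 here and below) in root water and 553 ± 74.0, 542 ± 52.0 and 534 ± 77.0 CPM after 1, 2 and 3 h of SHAM. In shoots it was 2005 ± 376 CPM in water and 1297 ± 136, 828 ± 47.8 and 1163 ± 78.8 CPM in SHAM. The sum of shoot over root thus narrowed in SHAM while the order of the organs did not change. PDX1.1 gave 11.9% ± 0.586 of the PDX counts in root water and 21.8% ± 4.88, 21.7% ± 6.40 and 17.5% ± 6.25 in root SHAM. In shoots it gave 65.5% ± 3.78 in water and 54.8% ± 7.29, 47.0% ± 2.36 and 57.5% ± 0.643 in SHAM. PDX1.3 took 63.6% ± 3.16 in root water and 23.4% ± 4.62 in shoot water, so the leading synthase transcript was PDX1.3 in roots and PDX1.1 in shoots.

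The counts of PDX1.1 over PDX1.3 were 0.187 ± 0.0100 in root water and 0.330 ± 0.0895, 0.365 ± 0.135 and 0.275 ± 0.125 in root SHAM. In shoots the ratio was 2.88 ± 0.651 in water and 1.38 ± 0.384, 1.2001 ± 0.272 and 1.87 ± 0.100 in SHAM. A ratio within a library does not depend on the scaling, and its mean moved toward 1 in SHAM in both organs. In roots the lowest library of 3 h (0.197) lay within the range of water (0.180 to 0.198). The lowest library of shoot SHAM 1 h was below 1, at 0.956. The summed counts of PDX1.1, PDX1.2 and PDX1.3, without PDX1L4, were set over those of PDX2. This ratio was 3.86 ± 0.693 in root water and 10.3 ± 2.27, 7.68 ± 3.33 and 6.90 ± 1.83 in root SHAM. In shoots this ratio was 18.3 ± 1.81 in water, 28.3 ± 8.49 after 1 h, 10.5 ± 1.53 after 2 h and 11.5 ± 2.56 after 3 h.

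**Figure D4:**
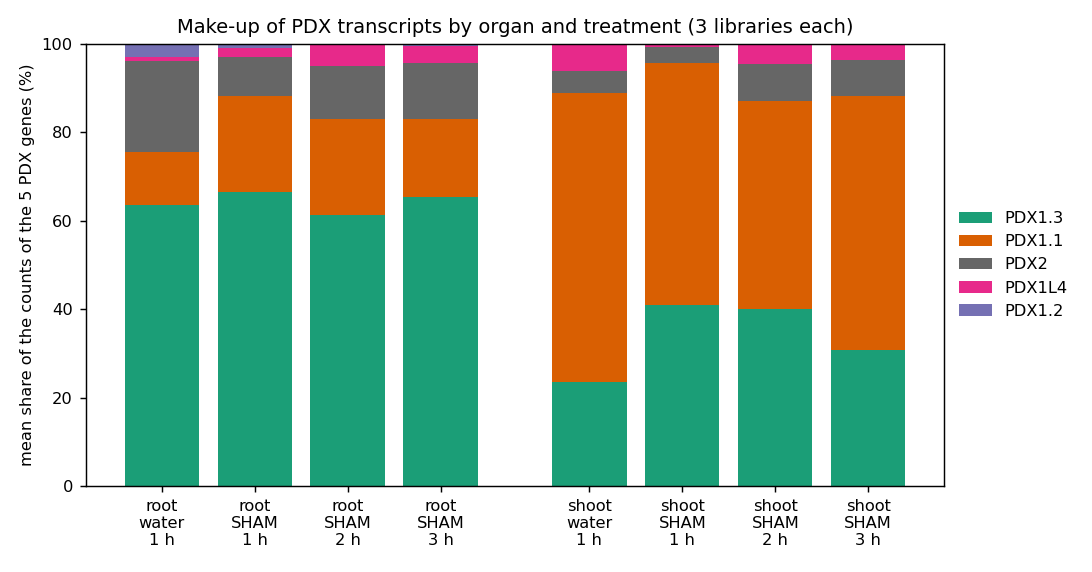
Mean share (%) of each PDX gene among the summed counts of the 5 genes in each group of 3 libraries. PDX1.3 makes up most of the root bars, and PDX1.1 is the largest part of every shoot bar, from 47.0% in SHAM 2 h to 65.5% in water.

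The steps between SHAM times hold no water library, but they use the same SHAM libraries as the contrast on which the PDX genes were picked, so the steps too are a description. In shoots from 1 h to 2 h, PDX1.1 had a log2 value of -1.04 ± 0.23 and PDX1.3 of -0.86 ± 0.20, with every library of 2 h below every library of 1 h for both genes. PDX1L4 had a log2 value of 1.92 ± 0.54, opposite in sign to its full-length neighbour, and PDX2 of 0.45 ± 0.25. The test over all genes called 2 of the 4 PDX genes lower, beside 3.2% of all genes called lower and 2.75% higher, and nothing is read from that count. Library size alone turned the split over all genes from 236 higher and 274 lower to 366 and 191.

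In shoots from 2 h to 3 h PDX1.1 had a log2 value of 0.71 ± 0.23, with all libraries of 3 h above those of 2 h. The values of PDX1.3, PDX1L4 and PDX2 were 0.05 ± 0.19, 0.14 ± 0.46 and 0.33 ± 0.24. Over all genes 4.66% were called higher and 4.29% lower by edgeR, which called 0 of the 4 PDX genes, as did DESeq2. At an unadjusted p under 0.05 there were 2126 of 8570 genes, 1 of them a PDX gene, and nothing is read from these counts.

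In roots from 1 h to 2 h PDX1L4 had a log2 value of 1.24 ± 0.45, and all its libraries of 2 h lay above those of 1 h. PDX1.2 had -1.04 ± 0.64 on 29 counts at 1 h and 9 at 2 h, PDX2 had 0.49 ± 0.28, and PDX1.1 and PDX1.3 had 0.06 ± 0.36 and -0.07 ± 0.21. Over all genes 2.3% were called higher and 1.81% lower by edgeR, which called 0 of the 5 PDX genes, as did DESeq2. At an unadjusted p under 0.05 there were 2291 of 10642 genes, 1 of them a PDX gene, and nothing is read from these counts. From 2 h to 3 h in roots 0% of genes were called higher and 0% lower by edgeR, and DESeq2 called 0 as well. At an unadjusted p under 0.05 there were 176 genes, 0 of them PDX genes.

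The list of B6 salvage and homeostasis genes gave few calls (5 genes, of which 3 were tested in each organ). Those tested were AT1G11930, AT4G26860 and SOS4 in roots, and AT1G11930, AT4G26860 and PLR1 in shoots. In roots 0, 1 and 1 rose at 1, 2 and 3 h and none fell at any of these times. In shoots 1 rose at 1 h, 1 rose and 1 fell at 2 h, and none passed at 3 h. Every rise was that of AT4G26860, so these counts say little about salvage enzymes, which recycle B6 forms. AT4G26860, annotated in the family of pyridoxal phosphate homeostasis proteins, stood at 27.5 ± 4.27 CPM in root water, 44.2 ± 7.35 after 2 h and 49.5 ± 3.20 after 3 h of SHAM (log2 1.00 ± 0.26 and 1.19 ± 0.26, edgeR adjusted p = 0.0190 and 0.00618). In shoots it rose from 77.6 ± 6.52 to 167 ± 26.5 CPM at 1 h (log2 1.34 ± 0.27, edgeR adjusted p = 0.00333) and was lower at 3 h than at 2 h. PLR1, a pyridoxal reductase, fell by 2.91 ± 0.73 in shoots at 2 h (edgeR, adjusted p = 0.0151), from 11.2 ± 5.36 to 1.32 ± 0.663 CPM. The root call of AT4G26860 at 2 h was lost with library size alone (adjusted p = 0.0853) and without replicate 2 or 3 of root SHAM 2 h or of root water (adjusted p = 0.0562 to 0.0614), and that of PLR1 without the shoot SHAM 2 h replicate 1 or the shoot water replicate 1 or 2 (adjusted p = 0.0533 to 0.0747). The shoot call of AT4G26860 at 2 h was lost in 7 of 18 alternatives. The step of AT4G26860 from 2 h to 3 h was lost without the shoot SHAM 2 h replicate 1 or the SHAM 3 h replicate 1 or 2 (adjusted p = 0.0533 to 0.0850). The median log2 value of the tested genes of this list was 0.08, 0.40 and 0.12 in roots and -0.10, 0.00 and -0.29 in shoots, beside 0.04, -0.08 and -0.07 over all genes in roots and 0.04, 0.00 and 0.00 in shoots.

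The oxidative pentose phosphate pathway and its sugar-phosphate isomerases make the pentose that PDX1 uses. Of 20 listed genes, 15 were tested in roots, where none rose and 1, 1 and 2 fell at 1, 2 and 3 h. Of 13 tested in shoots, 1 rose and 1 fell at 1 h, 1 rose and 2 fell at 2 h, and 1 rose at 3 h. The median log2 value was -0.06, -0.52 and -0.61 in roots and -0.34, -0.22 and 0.00 in shoots. RPI1 and RPI2 both encode ribose 5-phosphate isomerases. RPI1 rose in shoots from 35.7 ± 3.39 CPM to 113 ± 27.0, 62.6 ± 5.87 and 82.2 ± 12.99 CPM (log2 1.90 ± 0.24, 0.88 ± 0.23 and 1.21 ± 0.23, edgeR adjusted p = 1.04e-04, 0.0195 and 0.00442). The call of RPI1 at 2 h was lost without the shoot SHAM 2 h replicate 1 or any of the 3 shoot water libraries (adjusted p = 0.0555 to 0.0758). RPI2 fell in shoots at 1 h from 48.9 ± 11.9 to 12.1 ± 3.57 CPM (log2 -1.78 ± 0.31, edgeR adjusted p = 0.00139) and at 2 h to 14.8 ± 7.08 CPM, and stood at 41.0 ± 10.2 CPM at 3 h. PGD3, a 6-phosphogluconate dehydrogenase, fell in roots from 24.4 ± 11.03 to 3.37 ± 0.328 CPM at 3 h (log2 -2.45 ± 0.49, edgeR adjusted p = 0.00347). TRA1, a transaldolase, stood at only 5.70 ± 2.91 CPM in shoot water, so its shoot changes rest on low counts. TRA1 fell in shoots at 2 h (log2 -3.18 ± 0.71, edgeR adjusted p = 0.00747) and rose again from 2 h to 3 h (log2 3.23 ± 0.70, edgeR adjusted p = 0.0129, and 0.0549 without the shoot SHAM 2 h replicate 1).

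Enzymes that use pyridoxal phosphate were a mixed group. Of 46 listed genes, 34 were tested in roots, and 6, 5 and 6 rose while 0, 2 and 3 fell at 1, 2 and 3 h. In shoots 29 were tested, and 0, 3 and 5 rose while 1, 0 and 2 fell. These counts move with single libraries: over all 4 lists, the 8 calls in roots at 1 h came to 2 without the root water replicate 1 or 2 and to 3 without the root SHAM 1 h replicate 2, the 10 at 2 h to 6 without the root SHAM 2 h replicate 3, and the 13 at 3 h to 8 without the root water replicate 1. In shoots the 10 calls at 2 h came to 6 without the SHAM 2 h replicate 1 or the water replicate 2. The median log2 value was 0.21, 0.08 and -0.14 in roots and 0.04, -0.11 and 0.09 in shoots. TAT3, a tyrosine aminotransferase known as jasmonate-responsive, had 0 counts in root water and 53, 20 and 58 counts in root SHAM. Against a floor of 3 counts over the water group it was at least 10.7-fold, 6.16-fold and 13.8-fold higher. TAT7, a tyrosine aminotransferase of tocopherol synthesis, rose in roots from 1.06 ± 1.06 CPM to 13.3 ± 2.41 CPM at 2 h (log2 3.66 ± 0.52, edgeR adjusted p = 3.25e-04).

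SHM4, a serine hydroxymethyltransferase, fell in roots at 2 h from 281 ± 17.7 to 94.3 ± 14.8 CPM (log2 -1.25 ± 0.27, edgeR adjusted p = 0.00628). SUR1, the C-S lyase of glucosinolate synthesis, fell in roots at 2 h from 108 ± 41.1 to 26.9 ± 5.53 CPM (log2 -1.68 ± 0.34, edgeR adjusted p = 0.00415). ADC2, an arginine decarboxylase of polyamine synthesis, rose in shoots at 3 h from 462 ± 78.9 to 1934 ± 219 CPM (log2 2.08 ± 0.24, edgeR adjusted p = 6.52e-05). ADC2 also rose in roots at 1, 2 and 3 h (log2 1.25 ± 0.35, 1.34 ± 0.36 and 1.53 ± 0.36, edgeR adjusted p = 0.0344, 0.0217 and 0.00937). MGL, a methionine gamma-lyase, rose in shoots at 2 h from 21.4 ± 4.70 to 73.8 ± 1.65 CPM (log2 1.86 ± 0.29, edgeR adjusted p = 6.10e-04). MGL also rose in roots at 1, 2 and 3 h (log2 1.19 ± 0.33, 2.76 ± 0.34 and 3.01 ± 0.35, edgeR adjusted p = 0.0317, 1.01e-04 and 4.39e-05). TAA1, the tryptophan aminotransferase of auxin synthesis, fell in shoots at 1 h from 93.2 ± 19.8 to 30.5 ± 9.34 CPM (log2 -1.34 ± 0.24, edgeR adjusted p = 0.00137). In shoots at 3 h GGT2, a photorespiratory aminotransferase, and OASA1, a cysteine synthase, fell, with log2 values of -2.83 ± 0.58 and -2.54 ± 0.51 (edgeR, adjusted p = 0.00648 and 0.00619).

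Heat shock genes were listed because PDX1.2 is known as heat-induced. Of 26 genes, 8 were tested in roots and 1 rose at each time, and 6 were tested in shoots, where 3, 1 and 2 rose and 0, 1 and 0 fell. The median log2 value was 0.76, 0.08 and 0.64 in roots and 1.14, 0.49 and 0.71 in shoots. HSFB1, a heat shock factor, rose in all 6 comparisons with water, by log2 values of 1.09 to 1.57. HSP70 (AT3G12580), a cytosolic chaperone, rose in shoots at 1 h from 6.45 ± 1.76 to 26.5 ± 7.40 CPM (log2 2.28 ± 0.31, edgeR adjusted p = 2.06e-04). It was at 7.92 ± 2.59 CPM after 2 h and 30.1 ± 2.95 CPM after 3 h, while PDX1.2 was at 1 to 6 counts over the 3 shoot libraries at these times.

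Over the 8 group means of log2 CPM, PDX1.1 and PDX1.3 had a Pearson r of 0.953 and PDX1.1 and PDX1L4 of 0.807, whereas PDX1.2 had negative r with all other PDX genes. The organ contrast and the water groups are shared by all these points, and r is a description. Among 6734 genes (6735 for PDX1.2) with a mean of at least 10 CPM, the genes most like PDX1.1 were AT1G49980, AT5G05550 and the expansin EXPA10 (r = 0.993, 0.992 and 0.991). For PDX1.3 they were JAZ12, SNF7.1 and STR16 (r = 0.973, 0.973 and 0.970), and for PDX1L4 AT5G46020, AT4G22160 and AT5G65925 (r = 0.990, 0.988 and 0.973). For PDX2 they were AT1G45163, HMGB2 and PP2-A1 (r = 0.989, 0.983 and 0.983), and for PDX1.2 AT1G10380, EXPA15 and AT4G35080 (r = 0.944, 0.943 and 0.942).

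The bases before the genes were searched on both strands for TGACG, the core bound by TGA factors, for TTGAC, the core bound by WRKY factors, for CACGTG, which is the G-box, and for GAANNTTC, which is bound by heat shock factors. In the 250 bases before each gene start, TGACG was found at PDX1.1 only, where it overlaps a TTGAC match. TTGAC was also found at PDX1.2 and PDX1.3, CACGTG at PDX1.2 only, and GAANNTTC at none. Of 27443 windows of the same length before protein-coding genes, 18.6% hold TGACG, 44.9% TTGAC, 6.49% CACGTG and 9.55% GAANNTTC. A match of PDX1.1 and a match of PDX1.2, whose log2 values had opposite signs in roots, are shown, with the motif in capitals, read on the strand of the gene in TAIR10.1.
PDX1.1, chr2:16011200-16011225: tgagcttccaCGTCAAcaagataata
PDX1.2, chr3:5445378-5445403: acgattacgcCACGTGttctattcac
The PDX1.1 match starts 23 bases before the gene start and lies in the exact repeat, so the same letters lie 184 to 189 bases after the annotated start of PDX1L4. A match is a description of the letters and not a binding site.

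The gene next to PDX1.1 on the other side, AT2G38240, was looked at after its values were seen. It rose in both organs at all times. In roots it went from 9.63 ± 5.59 CPM to 266 ± 81.4, 108 ± 80.9 and 49.2 ± 43.0 CPM (log2 5.02 ± 0.84, 3.78 ± 0.81 and 2.68 ± 0.80, edgeR adjusted p = 0.00185, 0.00640 and 0.0334). In shoots it went from 2.64 ± 1.19 CPM to 19.95 ± 5.35, 17.3 ± 17.8 and 21.1 ± 1.86 CPM (log2 3.00 ± 0.62, 2.62 ± 0.61 and 2.87 ± 0.60, edgeR adjusted p = 0.00399, 0.00929 and 0.00799). Its direction in shoots was opposite to the sign of PDX1.1 and PDX1L4.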

How the data were processed

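RNA from 24 samples was measured by MARS-seq, and 16183 genes had whole-number counts deposited by the authors. Another 48 columns of normalized or transformed values of the same samples were not used. Per the submitters' processing notes the tools were bcl2fastq, cutadapt, STAR 2.4.2a, HTSeq and DESeq2. The genome build and the collapse of molecular identifiers are not given in the sources used here, and coordinates come from the TAIR10.1 annotation of RefSeq, matched by locus. The authors deposited log2 fold changes and p-values for group comparisons. Their log2 values, with the sign reversed, differed from those here by 0.0029 to 0.0806 over 27 values of the PDX genes.

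Groups were taken from the labels. Counts were fitted with edgeR 4.0.16 in R 4.3.3 (limma 3.58.1, data.table, version 1.17.8), with filterByExpr (minimum count 10, minimum total 15), TMM scaling and the quasi-likelihood test, Benjamini-Hochberg adjusted over all genes tested with a threshold of 0.05. Fits within an organ used its 12 libraries, while organ differences and the water comparison used all 24. The SE is the absolute log2 change over the square root of F. DESeq2 1.42.0, other scalings, no filter, a replicate block, only the groups compared and each library left out were the alternatives. Sequences were read with Biopython 1.88 in python 3.11.15 and plots drawn with matplotlib 3.10.9. The scripts were tested on simulated data.

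The steps between SHAM times were set to be tested for the PDX genes too, but their SHAM libraries also served to pick these genes, so no p is printed for them. The members, pathway lists and organ markers were chosen with earlier results of these data known. Pathway genes were named by a rule that took, from each list and comparison, up to 2 called genes with the highest and 2 with the lowest log2 change, and part of them is printed. The 3 genes most like each PDX gene were named by Pearson r. Replicates were separate pools of seedlings per the labels, and no pair of replicates agreed within sampling noise (chi-square per gene 4.48 to 46.9 over 24 pairs). Intervals and floors cover counting error only. Depth ran from 862731 to 3622300 counts per library.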

Additional observations from a re-analysis of the deposited data

Results flagged for a closer look

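The organ difference in the SHAM change, shoot minus root on the log2 scale, came from changes of opposite sign in the 2 organs for PDX1.1 and PDX1L4 at 1, 2 and 3 h and for PDX1.3 at 2 and 3 h. In these cases every root SHAM library lay above and every shoot SHAM library below all water libraries of its organ. The share of all genes that separate this way was not counted, so nothing is read from the separation. The difference was -2.45, -3.52 and -2.48 for PDX1.1, -5.91, -5.19 and -4.78 for PDX1L4, and -1.28 and -1.30 for PDX1.3 at 2 and 3 h. It was not tested for these genes, because they were picked for it.

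Among the 63 pathway genes in the fit of all libraries, the difference itself passed an interaction test (edgeR, adjusted over all genes) for 6 genes at 1 h, 0 at 2 h and 3 at 3 h, or 4.76% of 189 pairs of gene and time. Over all 11704 genes 694, 391 and 202 passed at these times. SUR1 had 2.41 ± 0.48 at 3 h (adjusted p = 0.00718), AT4G26860 had -1.53 ± 0.36 at 3 h (adjusted p = 0.0323) and RPI1 had 1.16 ± 0.33 at 1 h (adjusted p = 0.0402). RPI2 had -2.04 ± 0.50 (adjusted p = 0.0180) and TAA1 had -2.12 ± 0.40 (adjusted p = 0.00297) at 1 h, when ADC2 had -1.78 ± 0.49 (adjusted p = 0.0333) and GLDP1 had -2.04 ± 0.59 (adjusted p = 0.0404). PGD3 had 3.83 ± 0.92 at 1 h and 3.77 ± 0.97 at 3 h, but it did not pass the filter in the shoot fit and had 0, 2 and 1 counts in shoot water, so its shoot change is not known well enough to compare. No cause was tested.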

How the results depend on the processing

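The signs of the PDX1.1, PDX1.3 and PDX1L4 organ differences held in all alternatives run. For the PDX genes the steps between SHAM times are a description, and the counts of calls given here are no independent evidence. In the shoot step from 1 h to 2 h, fitting only the groups compared gave -1.03 for PDX1.1, -0.84 for PDX1.3, 0 PDX genes called and 2 pathway genes called. Over all genes that setting called 85 higher and 54 lower, against 236 and 274. The value of PDX1.3 was -0.68 with library size alone and -0.73 with no filter, and that of PDX1L4 was 2.01, 2.02 and 1.97 with library size alone, no filter and DESeq2. In the step from 2 h to 3 h library size alone gave 0.78 for PDX1.1 and 1 PDX gene called. Over all genes it called 372 higher and 297 lower, against 399 and 368. Library size alone also gave organ differences of -0.94 (2 h) and -0.91 (3 h) for PDX1.3, -0.24 (2 h) and 0.063 (3 h, sign changed) for PDX2 and -2.07 (3 h) for PDX1.1, and 16 and 21 pathway genes called in roots at 2 h and 3 h, against 10 and 13. Fitting only the groups compared gave 2 pathway genes in roots at 1 h against 8 and 0 in the root step from 1 h to 2 h against 5, where DESeq2 gave 9. The counts over all genes moved the same way. In roots at 1 h they went from 746 higher and 556 lower to 440 and 349. In the root step they went from 245 and 193 to 0 and 0 with only the groups compared, and to 421 and 324 with DESeq2. The cause was not tested.

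With each library left out in turn, the shoot step from 1 h to 2 h ran from -1.15 to -0.84 for PDX1.1, from -0.97 to -0.74 for PDX1.3 and from 1.16 to 2.29 for PDX1L4, with 0 to 3 PDX genes and 2 to 11 pathway genes called, and the step from 2 h to 3 h from 0.63 to 0.78 for PDX1.1, with 0 to 1 PDX gene and 5 to 12 pathway genes. The organ difference of PDX1.1 at 3 h ran from -2.66 to -1.91, that of PDX1.2 from -4.89 to -1.79 at 1 h and from -1.27 to -0.18 at 2 h, and that of PDX1.3 from -1.41 to -1.03 at 2 h and from -1.45 to -1.10 at 3 h. For PDX1L4 it ran from -5.94 to -4.80 at 2 h and from -5.06 to -4.08 at 3 h, and for PDX2 from -0.76 to -0.20 at 2 h and from -0.47 to 0.049 at 3 h. Pathway genes called in roots ran from 2 to 12, 6 to 14 and 8 to 15 at 1, 2 and 3 h and from 1 to 6 in the step from 1 h to 2 h, and in shoots from 6 to 11 at 2 h. The counts over all genes in these fits are not given, so nothing is read from the counts of calls.

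The replicate numbers were not shown to pair the samples. A pairing check over 18 same-numbered pairs per organ gave r of -0.451 to 0.46 in roots (median -0.0257). In shoots it gave r of -0.522 to 0.487 (median -0.121). With the replicate block the shoot step from 1 h to 2 h was -1.02 for PDX1.1 and -0.86 for PDX1.3, with 2 PDX genes called. Over all genes the block gave 161 higher and 144 lower. Among named pathway calls, those of G6PD5, ASP5, HSFB2A and RPI2 (root step) were lost in 13 or more of 18 alternatives, and no called gene changed sign. PDX1.2, with 0 to 20 counts per library, had the largest SE of the organ differences, 0.92 to 1.15.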
